A study of Mus musculus with 28 samples.

Results

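The 38 genes described here carry out macroautophagy and lysosomal breakdown. They were taken by name from a list of the pathway, and all 38 are present in both deposited count tables, among 43280 features. Their levels are CPM, the reads of a gene per 1000000 reads of its library. They were followed in male mouse germ cells over 7 times and grouped by step into 15 genes of initiation, 12 of conjugation, 3 cargo receptors and 8 lysosomal genes. The question is how their transcripts moved after retinoic acid and whether they differed between germ cells with and without Stra8, a gene that retinoic acid induces and that germ cells need for meiosis.

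All mice came from a mixed background (C57BL/6 x 129s4/SvJae), and all were given WIN 18,446, a blocker of retinoic acid synthesis, for 7 days. They were then collected (0 h) or given retinoic acid and collected 12, 18, 48, 72, 96 or 120 h later. Every later group had retinoic acid. Its part in a change from 0 h therefore cannot be told apart from that of time since the inhibitor or of age. PIWIL2-eGFP positive germ cells were sorted from the testis, and their polyadenylated RNA was sequenced. The 14 groups are wild type (WT) and Stra8 knockout (KO) at each of these times, with 2 libraries each and 28 libraries in all, so that 0 h controls also carry the reporter and have had the inhibitor. The ages of the mice, the form of the Stra8 deletion and the number of mice behind a library are not given in the sources used here. Nothing there says that the libraries of a group came from separate animals, so p-values measure the spread between these libraries, which may be technical.

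In macroautophagy a double membrane grows around cytoplasm, closes into an autophagosome and fuses with a lysosome, where hydrolases digest the content. The Ulk kinase complex and the Pik3c3 lipid kinase complex start the membrane. A chain of ubiquitin-like reactions then attaches LC3 and GABARAP proteins to it, and receptors such as Sqstm1 bind both cargo and these proteins. Many lysosomal and some autophagy genes share an E-box motif read by the transcription factor Tfeb and its relatives. In the testis, autophagy is best known for its part in building the sperm acrosome and tail.

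Library totals ran from 5757921 to 10147341 reads in WT and from 914126 to 9517360 in KO. The 3 shallowest, with 1079696, 914126 and 1031189 reads, are the KO libraries of 72, 96 and 120 h in the second count table. Without these 3, 17 of the 38 genes differed over the mean of the times (11 higher and 6 lower in KO), Map1lc3b among them, instead of 15. KO against WT then called 1 gene at 72 h, 5 at 96 h and 6 at 120 h instead of 5, 3 and 10, and KO against its 0 h called 0 at each of these times. Counts under altered sets of libraries, here and below, lack the share of all genes. A change in these counts therefore cannot be told apart from a change across all genes. Stra8 separated the genotypes at each time, with both KO values under the lower WT value. It reached 712 and 1042 CPM in WT at 12 h and 30.7 and 25.9 CPM in KO. The highest KO value was 62.1 CPM (417 reads), in the library labelled KO of 48 h in the first table, whose partner was at 2.09 CPM. It lies above the WT values of 0, 96 and 120 h and below both WT values of 48 h, and without it the count over the mean of the times was 15. The germ cell markers Ddx4 and Dazl were present in all 28 libraries, and the 8 germ cell markers summed to 2849 to 5666 CPM in WT and 4305 to 5257 in KO. Over the 7 times 4 of the 8 were higher in KO and 2 lower, among them Dazl (-0.37, adjusted p = 0.0064 in edgeR), and at 120 h 3 were higher, with Piwil2, the gene of the sorting reporter, at 0.82. The 12 Sertoli cell markers summed to 47.9 to 239 CPM in WT and 68.5 to 866 in KO, and 6 of the 12 were higher in KO over the 7 times. Summed peritubular and stromal markers ran from 71.0 to 379 CPM in WT and 135 to 496 in KO, with 2 of 8 tested higher in KO. Endothelial markers summed to 10.8 to 51.5 CPM in WT and 23.0 to 50.9 in KO, with 2 of 6 higher in KO. Leydig markers summed to 6.95 to 14.6 in WT and 7.01 to 35.2 in KO, leukocyte markers to 2.86 to 13.5 and 5.47 to 16.7, and erythroid markers to 1.64 to 5.73 and 0.826 to 6.51, with 1 leukocyte marker higher in KO and no Leydig or erythroid marker called. The mitochondrial share of reads was 1.98 to 3.06% for WT of the first table, 3.21 to 6.79% for WT of the second, and 4.55 to 8.55% for KO. The part of these germ cell, somatic cell and mitochondrial differences in the results was not tested.

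The promoters of the pathway show where the E-box occurs among these genes. RefSeq promoters (GRCm38.p6, 250 bases before to 50 after the start) were matched for 31 of the 38 genes, with 33 promoters. A gene is counted if any of its promoters holds the motif, while the background shares count single promoters. The E-box CACGTG, a palindrome that reads the same on both strands, occurs in 9 of the 31 (Atg14, Atg3, Atg5, Atg7, Ctsa, Ctsd, Ctsl, Lamp1 and Mcoln1), against 9.74% of the promoters of all tested genes and 7.15% of all promoters. The upstream 250 bases of the 3 lysosomal genes with more than 1 copy in them are shown 5′ to 3′ on the gene's strand: Lamp1 at chr8:13158911-13159160 (+), Mcoln1 at chr8:3500269-3500518 (+) and Ctsd at chr7:142387828-142388077 (-). Capitals mark CACGTG and, in Ctsd, also TGACCT, the reverse strand of AGGTCA, which overlaps its first E-box.
Lamp1: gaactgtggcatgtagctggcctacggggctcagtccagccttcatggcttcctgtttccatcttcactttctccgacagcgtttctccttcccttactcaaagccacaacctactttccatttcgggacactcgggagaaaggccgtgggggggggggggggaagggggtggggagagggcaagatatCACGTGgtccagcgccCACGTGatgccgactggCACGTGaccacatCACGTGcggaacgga
Mcoln1: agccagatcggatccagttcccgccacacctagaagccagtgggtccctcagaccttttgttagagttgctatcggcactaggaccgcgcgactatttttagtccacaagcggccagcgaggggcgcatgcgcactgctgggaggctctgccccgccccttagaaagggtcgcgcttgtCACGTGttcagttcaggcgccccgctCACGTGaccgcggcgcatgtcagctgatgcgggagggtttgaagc
Ctsd: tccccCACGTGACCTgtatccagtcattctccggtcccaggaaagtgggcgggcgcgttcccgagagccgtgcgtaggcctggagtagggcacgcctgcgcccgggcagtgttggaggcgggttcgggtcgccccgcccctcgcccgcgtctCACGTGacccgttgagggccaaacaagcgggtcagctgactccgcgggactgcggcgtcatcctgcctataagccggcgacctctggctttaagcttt
Lamp1 has 4 copies, at -61, -45, -28 and -15 from the start, Mcoln1 has them at -71 and -45, and Ctsd at -245 and -98. Ctsa has a copy on each side of its start, at -12 and 5. The promoters of the 2 genes with the strongest genotype difference below are shown for contrast: Gabarapl1 at chr6:129532942-129533191 (+) and Wipi1 at chr11:109611390-109611639 (-), both with no searched motif and so with no capitals.
Gabarapl1: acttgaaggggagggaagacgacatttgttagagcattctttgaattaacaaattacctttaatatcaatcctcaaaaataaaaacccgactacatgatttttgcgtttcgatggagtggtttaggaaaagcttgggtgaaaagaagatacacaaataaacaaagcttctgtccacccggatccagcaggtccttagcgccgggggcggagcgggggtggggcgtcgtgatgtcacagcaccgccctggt
Wipi1: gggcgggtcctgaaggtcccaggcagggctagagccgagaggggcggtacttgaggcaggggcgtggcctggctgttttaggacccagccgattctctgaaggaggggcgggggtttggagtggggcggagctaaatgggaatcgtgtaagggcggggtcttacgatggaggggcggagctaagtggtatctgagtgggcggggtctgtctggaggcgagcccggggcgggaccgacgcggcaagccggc
The FOXO motif TGTTTAC was in the promoters of 0 of the 31 genes, against 2.54% of the promoters of tested genes. The nuclear receptor motif AGGTCA was in those of 7 of the 31 genes (Atg10, Ctsa, Ctsd, Gabarapl2, Nbr1, Pik3r4 and Ulk2), against 12.8%. The CLEAR motif, a form of the E-box extended to 10 bases, was also searched. It was in the promoters of 0 of the 31 genes, against 0.635% of the promoters of tested genes. At so low a share, 0 of 31 cannot tell these genes from others. Both strands were searched. A match is a string of letters in this window and is given as a description.

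Ctsd and Lamp1 were the most abundant of the 38 transcripts for their length. Length here counts every annotated exon base of a gene, which can exceed the length of the transcripts expressed. Ctsd, the aspartic protease cathepsin D, had a median over the 28 libraries of 199.6 CPM per kilobase of exon, and Lamp1, the major glycoprotein of the lysosomal membrane, 195.4, with overlapping ranges of 147 to 286 and 142 to 296. Sqstm1 followed at 72.2 CPM per kilobase, Hexa at 43.2, Nbr1 at 40.4 and Map1lc3a at 38.4. The lowest levels per kilobase were those of Gabarapl2 (4.04), Atg9a (3.44) and Atg10 (2.99), and the ranges of these 3 overlap. The members together took 4652 ± 187 CPM in WT and 4833 ± 309 in KO (SD, n = 14 libraries each).

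The summed CPM of the steps followed different courses, and each sum is led by its most abundant members. From 0 to 18 h in WT, the mean of Lamp1 went from 406 to 721 CPM and that of Ctsd from 363 to 562. The means of Hexa (91.1 to 69.2 CPM) and Ctsa (103 to 87.4) fell, and those of the other lysosomal genes rose. The initiation sum was lowest early, at 1616 ± 37 CPM in WT at 12 h and 1422 ± 84 in KO at 18 h (SD, n = 2), against 1974 ± 149 and 2099 ± 170 at 0 h. The lysosomal sum had its highest group mean at 18 h, at 1646/2216 CPM in WT (first/second table) and 2026/1987 in KO, against 1207/1369 and 1651/1472 at 0 h. The WT libraries of 12 h were at 1777/1574, so that in the first table WT was higher at 12 h than at 18 h. The cargo receptor sum in WT went from 615 and 565 CPM at 0 h to 424 and 433 at 120 h. In KO it was at 592 and 659.8 CPM at 0 h and 588 and 596 at 120 h. Both KO libraries thus stood above both WT libraries at every time from 12 h on. Of the cargo receptors, only Sqstm1 passed the test of KO against WT described below. The conjugation sum ran between 623 and 867 CPM over all 28 libraries.

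**Figure D1:**
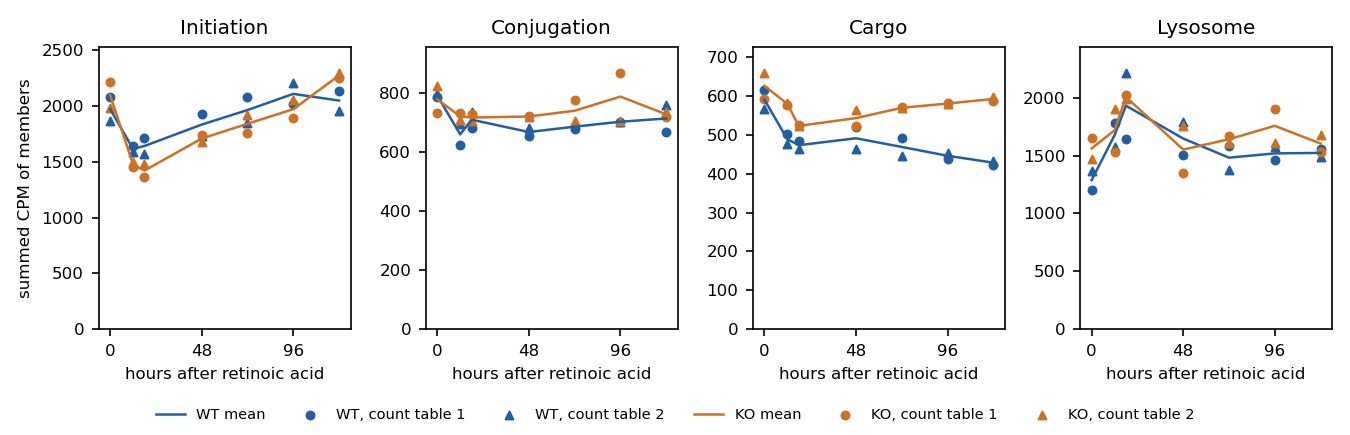
Summed CPM of the members of each step (vertical axis) against hours after retinoic acid, with 1 point per library and lines through the group means of 2 libraries. The initiation sum dips at 12 and 18 h in both genotypes, the mean lysosomal sum is highest at 18 h, and the cargo sum of KO stays above that of WT from 12 h on.

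Over the 7 times, 15 of the 38 genes differed between KO and WT, 8 higher and 7 lower in KO. The test is edgeR's quasi-likelihood test on the mean of the 7 differences, with Benjamini-Hochberg adjustment over 17519 genes and a threshold of 0.05. Values below are log2 fold changes ± SE. The test takes the 28 libraries as independent. WT libraries of the same table deviated together, with a median correlation of 0.517 over 21 pairs of times. The test does not model this, so its SE and p-values may be too small. The share called, 39.5%, lies beside a background of 37.6% of all genes tested (16.9% higher, 20.7% lower) and is near it. Their median log2 difference was -0.02, against -0.03 over all genes. Gabarapl1 (1.86-fold), Wipi1 (1.73-fold), Sqstm1 (1.44-fold) and Hexa (1.39-fold) led the higher genes. Ulk2 (1.43-fold) and Ulk1 (1.33-fold) led the lower ones. In sorted bulk cells, fewer cells of a type and less RNA per cell cannot be told apart. Initiation held 8 of the called genes (3 higher, 5 lower), conjugation 4 (2 each way), cargo 1 and the lysosome 2, all 3 higher in KO. Of 38 alternative settings, including each library left out, 9 genes kept their call in all 38: Gabarapl1, Wipi1, Sqstm1, Hexa, Atg101, Ctsa, Rb1cc1, Ulk1 and Ulk2. All 38 genes passed the filter on low counts.

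**Figure D2:**
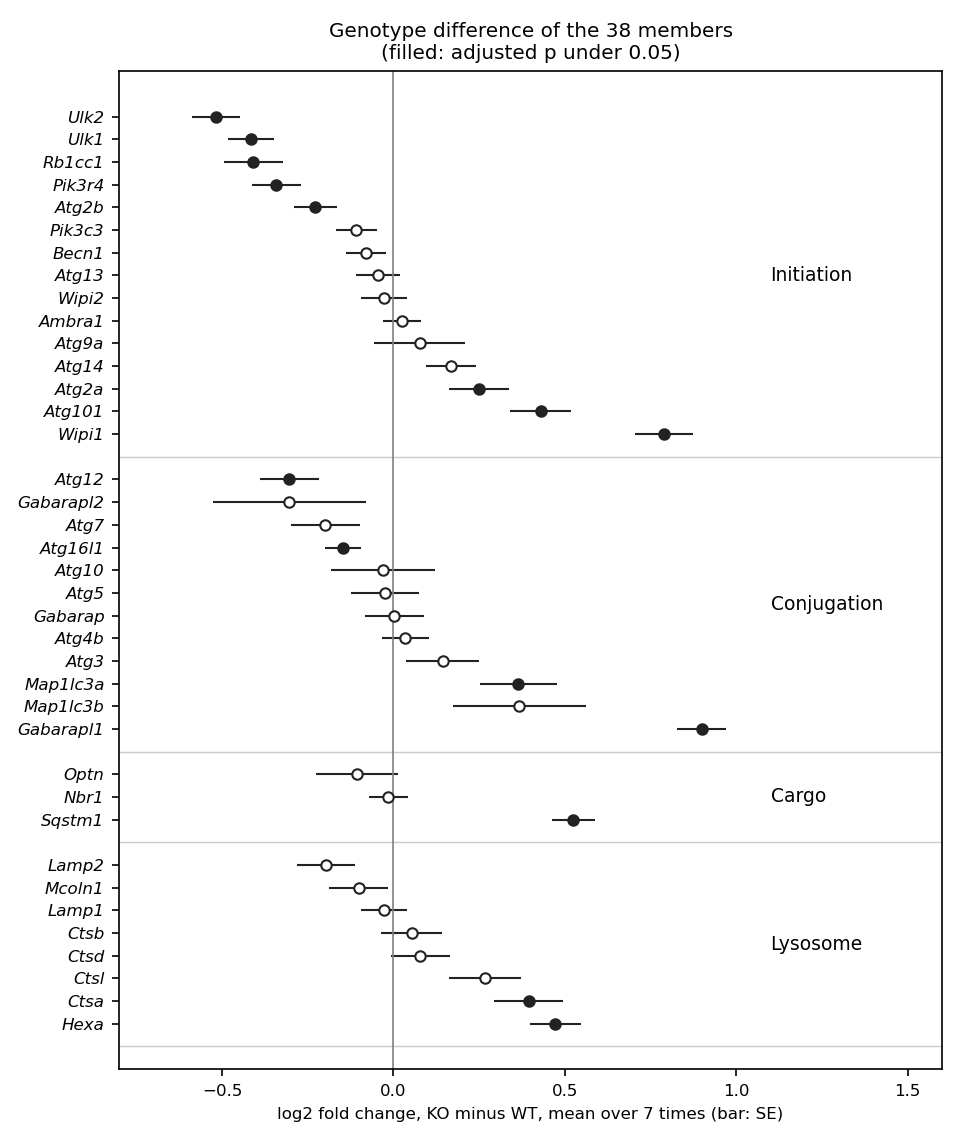
Log2 fold change of KO against WT as the mean over 7 times (horizontal axis, bars are the SE) for each of the 38 genes, by step. Filled points passed the threshold: 15 genes, from Ulk2 at -0.52 to Gabarapl1 at 0.90.

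Values of single libraries are given in pairs (first/second), the library of the first count table before that of the second. The share of all genes whose KO and WT libraries lie apart at a time is not given. Statements that groups lie apart or overlap therefore describe single genes only. On GRCm38, Ulk1 lies at chr5:110784488-110810097 (-), Ulk2 at chr11:61775649-61855073 (-), Rb1cc1 at chr1:6206197-6276648 (+) and Atg101 at chr15:101284272-101290945 (+), all protein-coding genes. Ulk1, the kinase that starts autophagosome formation, was lower in KO, with a log2 difference of -0.41 ± 0.07, adjusted p = 4.25e-05. Ulk1 in WT was at 183/168 CPM at 0 h, 186/176 at 12 h, 236/185 at 18 h, 315/282 at 48 h, 284/273 at 72 h, 284/361 at 96 h and 289/258 at 120 h. In KO Ulk1 was at 200.5/161 CPM at 0 h, 140.5/138 at 12 h, 119/154 at 18 h, 216/188 at 48 h, 202/244 at 72 h, 194/255 at 96 h and 218/228 at 120 h. Both KO libraries lay below both WT libraries at 6 times, all but 0 h, where the groups overlap. Its paralogue Ulk2 showed the same order of the groups, with -0.52 ± 0.07, adjusted p = 6.43e-06. Ulk2 in WT was at 51.2/44.5 CPM at 0 h, 52.7/61.3 at 12 h, 62.2/58.9 at 18 h, 52.7/47.7 at 48 h, 72.5/64.4 at 72 h, 71.8/60.4 at 96 h and 75.6/101 at 120 h. In KO Ulk2 was at 52.4/46.0 CPM at 0 h, 32.6/35.8 at 12 h, 40.7/44.7 at 18 h, 36.2/35.9 at 48 h, 37.3/43.5 at 72 h, 41.1/54.7 at 96 h and 62.2/67.9 at 120 h. KO was below WT at the same 6 times. Rb1cc1, the large scaffold (FIP200) of the Ulk complex, differed by -0.41 ± 0.09, adjusted p = 0.000723. Rb1cc1 in WT was at 170.4/141 CPM at 0 h, 115/132 at 12 h, 114/92.0 at 18 h, 131/104 at 48 h, 178/182 at 72 h, 189/111 at 96 h and 189/169 at 120 h. In KO Rb1cc1 was at 117/127 CPM at 0 h, 113/101 at 12 h, 98.6/95.7 at 18 h, 128/95.1 at 48 h, 107/84.3 at 72 h, 123/108 at 96 h and 126/94.1 at 120 h. Its groups are apart at 0, 12, 72 and 120 h, KO lower, and overlap at the other times. Atg101, which stabilises Atg13 in the same complex, went the other way with 0.43 ± 0.09, adjusted p = 0.000631. Atg101 in WT was at 48.0/50.2 CPM at 0 h, 38.8/47.7 at 12 h, 40.3/51.5 at 18 h, 45.6/53.8 at 48 h, 36.1/37.2 at 72 h, 35.2/68.1 at 96 h and 36.7/42.0 at 120 h. In KO Atg101 was at 84.0/65.5 CPM at 0 h, 50.8/52.6 at 12 h, 53.9/47.9 at 18 h, 55.4/61.3 at 48 h, 52.4/75.9 at 72 h, 59.0/65.6 at 96 h and 74.6/72.7 at 120 h. KO was above WT at 5 times, all but 18 and 96 h. Atg13 itself did not pass (-0.05 ± 0.06, adjusted p = 0.604).

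Within the lipid kinase complex the difference was in 1 of the 5 genes. Pik3r4, the Vps15 subunit that anchors the complex, was lower in KO (-0.34 ± 0.07, adjusted p = 0.000646). Pik3r4 in WT was at 148/132 CPM at 0 h, 167/136 at 12 h, 158/137 at 18 h, 142/128 at 48 h, 202/142 at 72 h, 189.7/172 at 96 h and 176/155 at 120 h. In KO Pik3r4 was at 147/123 CPM at 0 h, 106/125 at 12 h, 104/114 at 18 h, 111/104 at 48 h, 128/101 at 72 h, 130.1/131 at 96 h and 161/192 at 120 h. Both KO libraries were below both WT libraries from 12 to 96 h and not at 0 or 120 h. Without the 7 WT libraries of the first table its difference was -0.20 and no longer passed (adjusted p = 0.0579). The catalytic subunit Pik3c3 (-0.11 ± 0.06, adjusted p = 0.161), the scaffold Becn1 (-0.08 ± 0.06, adjusted p = 0.295), the targeting subunit Atg14 (0.17 ± 0.07, adjusted p = 0.0706) and the Becn1 partner Ambra1 (0.03 ± 0.06, adjusted p = 0.752) did not pass. Wipi1 (chr11:109573331-109611967, -), which reads the phosphoinositide made by this kinase, was the strongest initiation gene with 0.79 ± 0.09, adjusted p = 3.26e-07. Wipi1 in WT was at 127/116 CPM at 0 h, 25.3/26.2 at 12 h, 18.6/16.3 at 18 h, 27.7/20.3 at 48 h, 47.6/49.0 at 72 h, 33.0/47.8 at 96 h and 52.5/34.5 at 120 h. In KO Wipi1 was at 160.1/139.9 CPM at 0 h, 45.0/41.0 at 12 h, 27.1/28.5 at 18 h, 43.8/38.6 at 48 h, 82.2/81.5 at 72 h, 88.6/64.5 at 96 h and 137/106 at 120 h. Both KO libraries exceeded both WT libraries at each of the 7 times. Wipi2, the family member that recruits the conjugation machinery, had a difference of -0.03 ± 0.07, adjusted p = 0.786. The lipid transfer proteins Atg2a and Atg2b gave opposite signs. Atg2b was lower (-0.23 ± 0.06, adjusted p = 0.00615). Atg2b in WT was at 197/189 CPM at 0 h, 124/118 at 12 h, 161/135 at 18 h, 203/156 at 48 h, 252/205 at 72 h, 241/219.7 at 96 h and 256/230.3 at 120 h. In KO Atg2b was at 194/177 CPM at 0 h, 109/111 at 12 h, 109/116 at 18 h, 165/154 at 48 h, 171/184 at 72 h, 177/231 at 96 h and 227/238 at 120 h. KO lay below WT at 12, 18 and 72 h with overlap at the other 4 times, and its call was lost without the 7 WT libraries of the first table (adjusted p = 0.246). Atg2a was higher by 0.25 ± 0.09, adjusted p = 0.0282, a call kept in 30 of 38 alternatives and lost without any 1 of 7 single libraries (WT second-table at 0, 12 and 18 h, KO first-table at 0 and 120 h, KO second-table at 18 and 48 h) or without the 7 WT libraries of the second table. Atg9a, the membrane scramblase, ran from 9.17 to 43.6 CPM with a difference of 0.08 ± 0.13, adjusted p = 0.683.

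Gabarapl1, a GABARAP family member that is conjugated to the autophagosome membrane, had the largest difference of the 38 genes, 0.90 ± 0.07, adjusted p = 4.77e-09. Gabarapl1 in WT was at 57.2/48.6 CPM at 0 h, 15.4/16.6 at 12 h, 15.6/16.9 at 18 h, 25.7/22.3 at 48 h, 23.2/24.3 at 72 h, 21.9/30.7 at 96 h and 23.7/21.6 at 120 h. In KO Gabarapl1 was at 66.6/64.6 CPM at 0 h, 33.9/34.9 at 12 h, 30.5/25.6 at 18 h, 36.9/40.4 at 48 h, 56.6/54.6 at 72 h, 52.6/48.1 at 96 h and 60.7/59.2 at 120 h. Both KO libraries were above both WT libraries at each of the 7 times, and per kilobase its median level was 11.3 CPM in WT and 25.0 in KO. Gabarapl1 lies at chr6:129533160-129542346 (+, GRCm38), and 28.3% of its exon length is shared with 1700101I11Rik, which had 0 to 11 reads per library. Its relatives Gabarap (0.00 ± 0.09, adjusted p = 0.99, groups overlapping at all 7 times) and Gabarapl2 (-0.30 ± 0.22, adjusted p = 0.299) did not pass. Levels of LC3 and GABARAP paralogues carry a further uncertainty. For the 7 WT libraries of the first table, reads aligned to more than 1 place stand in a row outside the genes. For the other libraries the counting of reads that these genes share is not stated. Map1lc3a, an LC3 protein, was higher in KO by 0.36 ± 0.11, adjusted p = 0.0133, but by 0.18 without the 7 WT libraries of the first table (adjusted p = 0.152) and 0.61 without those of the second. Map1lc3b, the form used most to follow autophagosomes, did not pass (0.37 ± 0.19, adjusted p = 0.152).

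Atg12, the ubiquitin-like protein joined to Atg5, was lower in KO (-0.30 ± 0.09, adjusted p = 0.00759). Atg12 in WT was at 60.2/48.8 CPM at 0 h, 46.3/49.1 at 12 h, 57.0/48.0 at 18 h, 69.2/54.0 at 48 h, 64.8/62.5 at 72 h, 82.8/54.5 at 96 h and 73.8/71.8 at 120 h. In KO Atg12 was at 35.9/41.8 CPM at 0 h, 36.9/40.7 at 12 h, 44.3/44.4 at 18 h, 53.5/56.5 at 48 h, 50.9/75.0 at 72 h, 52.2/66.7 at 96 h and 42.8/70.8 at 120 h. KO lay below WT at 0, 12, 18 and 120 h, and the call was lost without the 7 WT libraries of the first table (adjusted p = 0.185). Atg16l1, which directs the Atg12 and Atg5 conjugate to membranes, passed narrowly with -0.15 ± 0.05, adjusted p = 0.0294 and kept its call in 20 of 38 alternatives. The remaining conjugation genes did not pass: the conjugating enzymes Atg3 (0.14) and Atg10 (-0.03), the Atg12 acceptor Atg5 (-0.02), the activating enzyme Atg7 (-0.20) and the protease Atg4b (0.04), all as log2 differences.

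Sqstm1 (p62, chr11:50199366-50210827, -), the receptor that carries ubiquitinated cargo and is itself degraded with it, was the 1 cargo gene of 3 that passed, with 0.52 ± 0.06, adjusted p = 1.48e-06. Sqstm1 in WT was at 258/227 CPM at 0 h, 227/209 at 12 h, 189/208 at 18 h, 203/183 at 48 h, 165/137 at 72 h, 154/206 at 96 h and 160.2/169 at 120 h. In KO Sqstm1 was at 295/319 CPM at 0 h, 289/322 at 12 h, 258/280.5 at 18 h, 221/269 at 48 h, 273/264 at 72 h, 299.7/264 at 96 h and 288/287 at 120 h. Both KO libraries were above both WT libraries at each of the 7 times, and the WT values at 72 and 120 h were the lowest groups. Nbr1, a related receptor (-0.01 ± 0.06, adjusted p = 0.869), and Optn, a receptor of damaged mitochondria (-0.11 ± 0.12, adjusted p = 0.516), did not pass. Sqstm1 shares 17.3% of its exon length with Mrnip, and the use of strand in the counting is not given in the sources used here.

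Among the 8 lysosomal genes Hexa and Ctsa were higher in KO. Hexa (chr9:59539540-59565109, +) encodes the alpha chain of hexosaminidase, which cleaves gangliosides, and differed by 0.47 ± 0.07, adjusted p = 3.18e-05. Hexa in WT was at 93.4/88.8 CPM at 0 h, 82.3/77.1 at 12 h, 58.9/79.5 at 18 h, 74.5/75.9 at 48 h, 59.1/56.7 at 72 h, 59.4/87.0 at 96 h and 76.8/67.9 at 120 h. In KO Hexa was at 134/126 CPM at 0 h, 74.5/85.6 at 12 h, 92.0/89.5 at 18 h, 77.5/109 at 48 h, 102/109 at 72 h, 125/106 at 96 h and 123/119 at 120 h. The groups were apart at 6 times and overlapped at 12 h. Ctsa, a carboxypeptidase that also protects other lysosomal enzymes, differed by 0.39 ± 0.10, adjusted p = 0.00358. Ctsa in WT was at 94.2/112 CPM at 0 h, 105/95.1 at 12 h, 70.7/104 at 18 h, 85.7/107 at 48 h, 83.0/99.0 at 72 h, 59.4/103 at 96 h and 74.1/49.5 at 120 h. In KO Ctsa was at 147/129.9 CPM at 0 h, 107/115 at 12 h, 97.4/114 at 18 h, 87.4/112 at 48 h, 116/122 at 72 h, 159.8/88.6 at 96 h and 121/127 at 120 h. KO exceeded WT at 0, 12, 72 and 120 h. Beside these results, the summed Sertoli markers had medians of 86.3 CPM in WT and 171 in KO, and their part was not tested. The proteases Ctsl (0.27), Ctsd (0.08) and Ctsb (0.06), the membrane proteins Lamp1 (-0.03) and Lamp2 (-0.20), and the calcium channel Mcoln1 (-0.10) did not pass, Ctsl with an adjusted p of 0.0511. Exons overlap those of a neighbour over 12.8% of the length in Hexa (Tmem202, 0 to 3 reads) and 10.5% in Ctsa (Pltp, 5 to 80 reads). The overlap is 12.8% in Ctsb (Fdft1, 55 to 2128 reads), 9.31% in Lamp1 (Grtp1, 23 to 320 reads) and 26.8% in Ctsl (Gm47123). For Ctsd it is 34.4% (Gm49369), on the same strand.

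**Figure D3:**
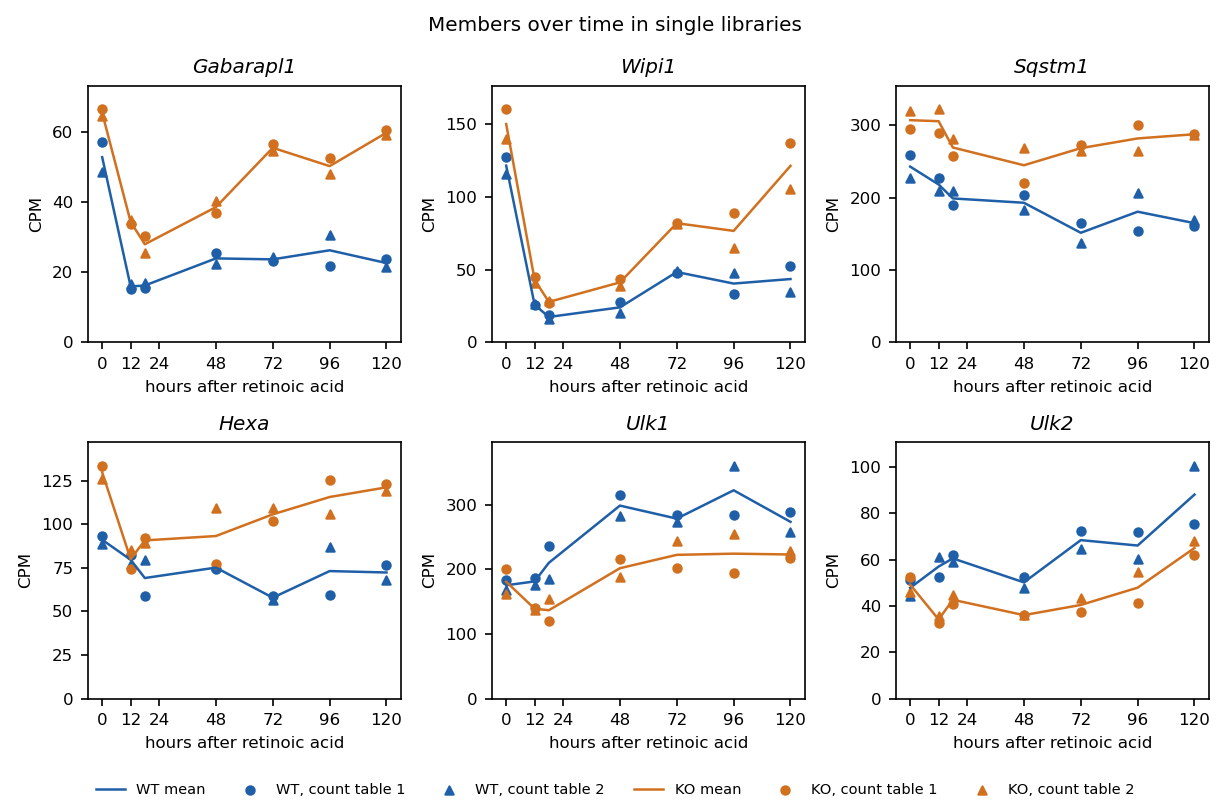
CPM (vertical axis, from 0) of 6 genes in single libraries against hours after retinoic acid, with circles for the first and triangles for the second count table and lines through the means of 2 libraries. KO points of Gabarapl1, Wipi1 and Sqstm1 lie above WT at all 7 times, while Ulk1 and Ulk2 lie below from 12 h on.

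Taken time by time, the largest number of genes was called at 120 h. Before retinoic acid no gene of the 38 was called, nor was any of all genes (0%). By unadjusted p under 0.05 there were 6, and DESeq2 called 0. Counts by unadjusted p, here and below, have no share of all genes beside them and are not read as a result. The smallest p were those of Hexa (0.49), Atg101 (0.59) and Wipi2 (0.41 on the log2 scale), each with an adjusted p of 0.716. At 12 h 1 gene was called, against 1.18% of all genes, Gabarapl1 with 1.12 ± 0.19, adjusted p = 0.00339, a call lost without either WT library of 12 h. At 18 h it was again Gabarapl1 alone with 0.88 ± 0.19, adjusted p = 0.00872, against a background of 4.1%, and the call was lost without either WT library or the first-table KO library of 18 h. At 48 h edgeR called 0 of 38 and 0.274% of all genes, 4 passed an unadjusted p under 0.05, DESeq2 called 0, and Gabarapl1 (0.69), Wipi1 (0.78) and Ulk1 (-0.56) had the smallest p (adjusted p = 0.176, 0.227 and 0.273).

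At 72 h 5 genes were called (13.2%, against 4.57% of all genes). Gabarapl1 (1.18 ± 0.19, adjusted p = 0.00247), Hexa (0.80 ± 0.20, adjusted p = 0.0243) and Sqstm1 (0.76 ± 0.17, adjusted p = 0.0141) were higher in KO, and Rb1cc1 (-0.95 ± 0.23, adjusted p = 0.0228) and Ulk2 (-0.84 ± 0.19, adjusted p = 0.0169) lower. Only the Gabarapl1 call held without each of the libraries in turn. The other 4 were lost without the shallow KO library of 72 h in the second table, and each of them also without at least 1 of the other 3 libraries of that time. At 96 h the called genes were Gabarapl1 (0.89 ± 0.19, adjusted p = 0.0114), Wipi1 (0.90 ± 0.23, adjusted p = 0.0278) and Ulk1 (-0.62 ± 0.18, adjusted p = 0.048), 7.89% against 4.41%. The Gabarapl1 and Wipi1 calls were lost without the first-table WT library or the first-table KO library of 96 h, and that of Ulk1 in 31 of the alternatives.

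At 120 h 10 genes were called, 7 higher and 3 lower in KO, which is 26.3% against a background of 15.9% (7.74% higher, 8.19% lower). Wipi1 (1.36 ± 0.23, adjusted p = 0.000549) and Gabarapl1 (1.26 ± 0.19, adjusted p = 0.000277) held without any single library. The others were the hydrolases Ctsa (0.86 ± 0.27, adjusted p = 0.0331) and Hexa (0.60 ± 0.20, adjusted p = 0.0385), and Atg2a (0.77 ± 0.23, adjusted p = 0.0272), Atg101 (0.76 ± 0.24, adjusted p = 0.0318) and Sqstm1 (0.66 ± 0.17, adjusted p = 0.0111), all higher. Lamp2, the membrane receptor of chaperone-mediated autophagy, was lower (-0.92 ± 0.23, adjusted p = 0.01), as were Rb1cc1 (-0.82 ± 0.23, adjusted p = 0.0187) and Ulk2 (-0.59 ± 0.19, adjusted p = 0.0333). Lamp2 was at 117 and 114 CPM in WT and 65.7 and 68.9 CPM in KO at that time. Every one of these 8 calls was lost without at least 1 library of its own time, and Rb1cc1, Lamp2, Hexa, Ulk2 and Atg101 also when the 3 shallow KO libraries were left out. At 120 h 2 of 12 Sertoli markers, 2 of 8 peritubular markers and 1 of 6 endothelial markers were higher in KO, and their part was not tested.

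In WT, Wipi1, Gabarapl1 and Atg14 fell at all 6 times after retinoic acid. These comparisons share the 2 WT libraries of 0 h. The fit does not model the deviation shared by WT libraries of a table, so SE and p-values between WT times may be too large. The called genes numbered 7 at 12 h, 6 at 18, 48 and 72 h, 11 at 96 h and 13 at 120 h. That is 18.4, 15.8, 15.8, 15.8, 28.9 and 34.2% of the members, beside 10.8, 11.7, 12.7, 12.7, 26.7 and 29.2% of all genes. The median of the 38 log2 changes was -0.20 at 12 h and -0.24 at 18 h, where that of all genes was -0.01 and -0.00. Wipi1 fell at every later time, with log2 changes of -2.24 ± 0.23 at 12 h (adjusted p = 1.13e-06), -2.85 ± 0.24 at 18 h (adjusted p = 3.30e-08), -2.34 ± 0.23 at 48 h (adjusted p = 1.40e-06), -1.30 ± 0.22 at 72 h (adjusted p = 0.000598), -1.57 ± 0.23 at 96 h (adjusted p = 3.00e-05) and -1.38 ± 0.22 at 120 h (adjusted p = 8.36e-05). Its WT mean went from 121 CPM at 0 h to 17.4 at 18 h, a 7.19-fold lower level in the fit. Gabarapl1 fell with changes of -1.73 ± 0.19 at 12 h (adjusted p = 2.64e-06), -1.75 ± 0.19 at 18 h (adjusted p = 1.19e-06), -1.15 ± 0.19 at 48 h (adjusted p = 0.000258), -1.13 ± 0.19 at 72 h (adjusted p = 0.000532), -0.99 ± 0.19 at 96 h (adjusted p = 0.000456) and -1.12 ± 0.19 at 120 h (adjusted p = 0.000127). Atg14, which sends the lipid kinase to the site of autophagosome formation, fell with changes of -0.77 ± 0.19 at 12 h (adjusted p = 0.00874), -0.83 ± 0.19 at 18 h (adjusted p = 0.00443), -0.80 ± 0.19 at 48 h (adjusted p = 0.00652), -0.86 ± 0.19 at 72 h (adjusted p = 0.00397), -1.30 ± 0.19 at 96 h (adjusted p = 3.57e-05) and -0.80 ± 0.19 at 120 h (adjusted p = 0.00267). Its 0 h libraries were at 160.3 and 134 CPM and those of 96 h at 68.0 and 48.6. The Wipi1 and Gabarapl1 calls held at all 6 times without any single library, and those of Atg14 at 96 and 120 h. Atg10, an enzyme that joins Atg12 to Atg5, fell at 12 h (-1.41 ± 0.37, adjusted p = 0.0148), 48 h (-1.11 ± 0.37, adjusted p = 0.0481), 96 h (-1.14 ± 0.37, adjusted p = 0.0258) and 120 h (-1.39 ± 0.38, adjusted p = 0.00716), from 10.9 and 11.1 CPM at 0 h to 3.02 and 4.73 CPM at 120 h.

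Other WT falls were seen at 1 or 2 times. Atg2b (-0.68 ± 0.16, adjusted p = 0.00761) and Ambra1 (-0.55 ± 0.15, adjusted p = 0.0152) fell at 12 h and Atg2a (-0.78 ± 0.23, adjusted p = 0.0289) at 18 h. Sqstm1 fell at 72 h (-0.65 ± 0.17, adjusted p = 0.0122) and 120 h (-0.46 ± 0.17, adjusted p = 0.0432), and Hexa at 72 h (-0.63 ± 0.19, adjusted p = 0.0343). Atg5 fell at 96 h (-0.71 ± 0.26, adjusted p = 0.0469) and Pik3c3 at 120 h (-0.43 ± 0.16, adjusted p = 0.0411).

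Most genes that rose in WT were initiation genes, from 48 h on, or lysosomal genes, steps that hold 15 and 8 of the 38 members. Other initiation genes, such as Wipi1, Atg14 and Atg2a, were among those that fell. Ulk1 rose at 48 h (0.76 ± 0.18, adjusted p = 0.00548), 72 h (0.69 ± 0.17, adjusted p = 0.0108), 96 h (0.90 ± 0.18, adjusted p = 0.000567) and 120 h (0.74 ± 0.18, adjusted p = 0.00265). Ulk2 rose at 96 h (0.49 ± 0.18, adjusted p = 0.0467) and 120 h (0.98 ± 0.18, adjusted p = 0.000309). Wipi2 rose at 48 h (0.59 ± 0.18, adjusted p = 0.0292), 96 h (0.92 ± 0.18, adjusted p = 0.000543) and 120 h (0.78 ± 0.18, adjusted p = 0.00197), and Becn1 at 96 h (0.53 ± 0.15, adjusted p = 0.0117) and 120 h (0.77 ± 0.15, adjusted p = 0.000658). Becn1 in WT was at 124 and 137 CPM at 0 h and 201 and 213 CPM at 120 h. The 120 h calls of Ulk1, Ulk2, Wipi2 and Becn1, and the 96 h calls of Ulk1 and Wipi2, held without any single library. Becn1 shares 43.9% of its exon length with Cntd1, which had 3 to 93 reads per library.

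Ctsb, the cysteine protease cathepsin B, rose at 12 h (0.93 ± 0.24, adjusted p = 0.0114), 18 h (0.73 ± 0.24, adjusted p = 0.0447), 96 h (0.79 ± 0.24, adjusted p = 0.0153) and 120 h (0.91 ± 0.24, adjusted p = 0.00562). Its WT libraries were at 89.1 and 120.2 CPM at 0 h and at 214 and 186 CPM at 12 h, with no overlap. Lamp1 rose at 18 h (0.77 ± 0.18, adjusted p = 0.00497), from 381 and 431 CPM to 651 and 791. These Ctsb and Lamp1 calls, and those of Atg14 up to 72 h, were lost without the first-table WT library of 0 h. Ctsl rose at 120 h (0.78 ± 0.28, adjusted p = 0.0392) and Atg7 at 96 h (0.79 ± 0.26, adjusted p = 0.0264). Atg2b, called at 120 h (0.43 ± 0.16, adjusted p = 0.0491), and Ulk2 at 96 h lost their calls when any single library was left out. Beyond the calls named above as held, every WT call was lost without at least 1 library of 0 h or of its own time.

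In KO, Wipi1 and Gabarapl1 had the largest falls among the genes called at 12 and 18 h, and at most 1 gene was called at 72, 96 or 120 h. The KO comparisons share the 2 KO libraries of 0 h. They called 9 genes at 12 h, 8 at 18 h, 5 at 48 h, 0 at 72 h, 1 at 96 h and 0 at 120 h. Without the first-table KO library of 48 h, the 48 h comparison called 1, Wipi1. Those are 23.7, 21.1, 13.2, 0, 2.63 and 0% of the members, beside 8.44, 8.91, 4.61, 0.434, 1.7 and 0.885% of all genes. Wipi1 fell at 12 h (-1.77 ± 0.23, adjusted p = 5.72e-05), 18 h (-2.37 ± 0.23, adjusted p = 1.24e-06), 48 h (-1.85 ± 0.23, adjusted p = 5.27e-05) and 96 h (-0.96 ± 0.23, adjusted p = 0.0297). Gabarapl1 fell at 12 h (-0.90 ± 0.19, adjusted p = 0.00355), 18 h (-1.16 ± 0.19, adjusted p = 0.000528) and 48 h (-0.75 ± 0.19, adjusted p = 0.0236). Its KO libraries of 120 h, at 60.7 and 59.2 CPM, were close to those of 0 h, at 66.6 and 64.6 CPM, and the difference was -0.14 (adjusted p = 0.83). Wipi1 at 120 h was at 137 and 106 CPM against 160.1 and 139.9 at 0 h, a difference of -0.30 that did not pass (adjusted p = 0.673).

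Several initiation genes fell in KO at 12 or 18 h. Atg13 fell at 12 h (-0.57 ± 0.17, adjusted p = 0.0331) and 18 h (-0.67 ± 0.17, adjusted p = 0.0137). So did Atg2b (-0.73 ± 0.17, adjusted p = 0.0074 and -0.66 ± 0.17, adjusted p = 0.0133) and Pik3c3 (-0.55 ± 0.16, adjusted p = 0.0302 and -0.54 ± 0.16, adjusted p = 0.0335). Ambra1 fell at 12 h (-0.57 ± 0.15, adjusted p = 0.018), and Atg2a at 18 h (-0.94 ± 0.23, adjusted p = 0.0133) and 48 h (-0.86 ± 0.23, adjusted p = 0.0353). Atg9a fell at 48 h (-1.30 ± 0.35, adjusted p = 0.0346), from 37.1 and 31.3 CPM to 10.7 and 17.3. Of the lysosomal genes, Mcoln1 (-0.82 ± 0.23, adjusted p = 0.0252) and Hexa (-0.67 ± 0.19, adjusted p = 0.0318) fell at 12 h, while Ctsb rose (0.82 ± 0.24, adjusted p = 0.0319). Lamp2 (0.99 ± 0.23, adjusted p = 0.00789) and Lamp1 (0.79 ± 0.18, adjusted p = 0.00708) rose at 18 h. At 0 h Lamp2 was at 76.4 and 112 CPM, at 18 h, its highest time in KO, at 196 and 160.5, and by 120 h at 65.7 and 68.9. Becn1 rose at 48 h (0.56 ± 0.15, adjusted p = 0.0369). Without each library in turn, Wipi1 at 12, 18 and 48 h and Gabarapl1 at 18 h held, and every other KO call was lost without at least 1 library of 0 h or of its own time.

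At 72 h edgeR called 0 of the 38 in KO, with 6 under an unadjusted p of 0.05 and 2 called by DESeq2. Wipi1 (-0.88), Becn1 (0.60) and Atg9a (-1.07) had the smallest p (adjusted p = 0.0696, 0.072 and 0.183). At 120 h edgeR and DESeq2 both called 0 in KO, 3 were under an unadjusted p of 0.05, and Optn (-0.98), Becn1 (0.37) and Lamp2 (-0.50) had the smallest p (adjusted p = 0.221, 0.357 and 0.435).

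**Figure D4:**
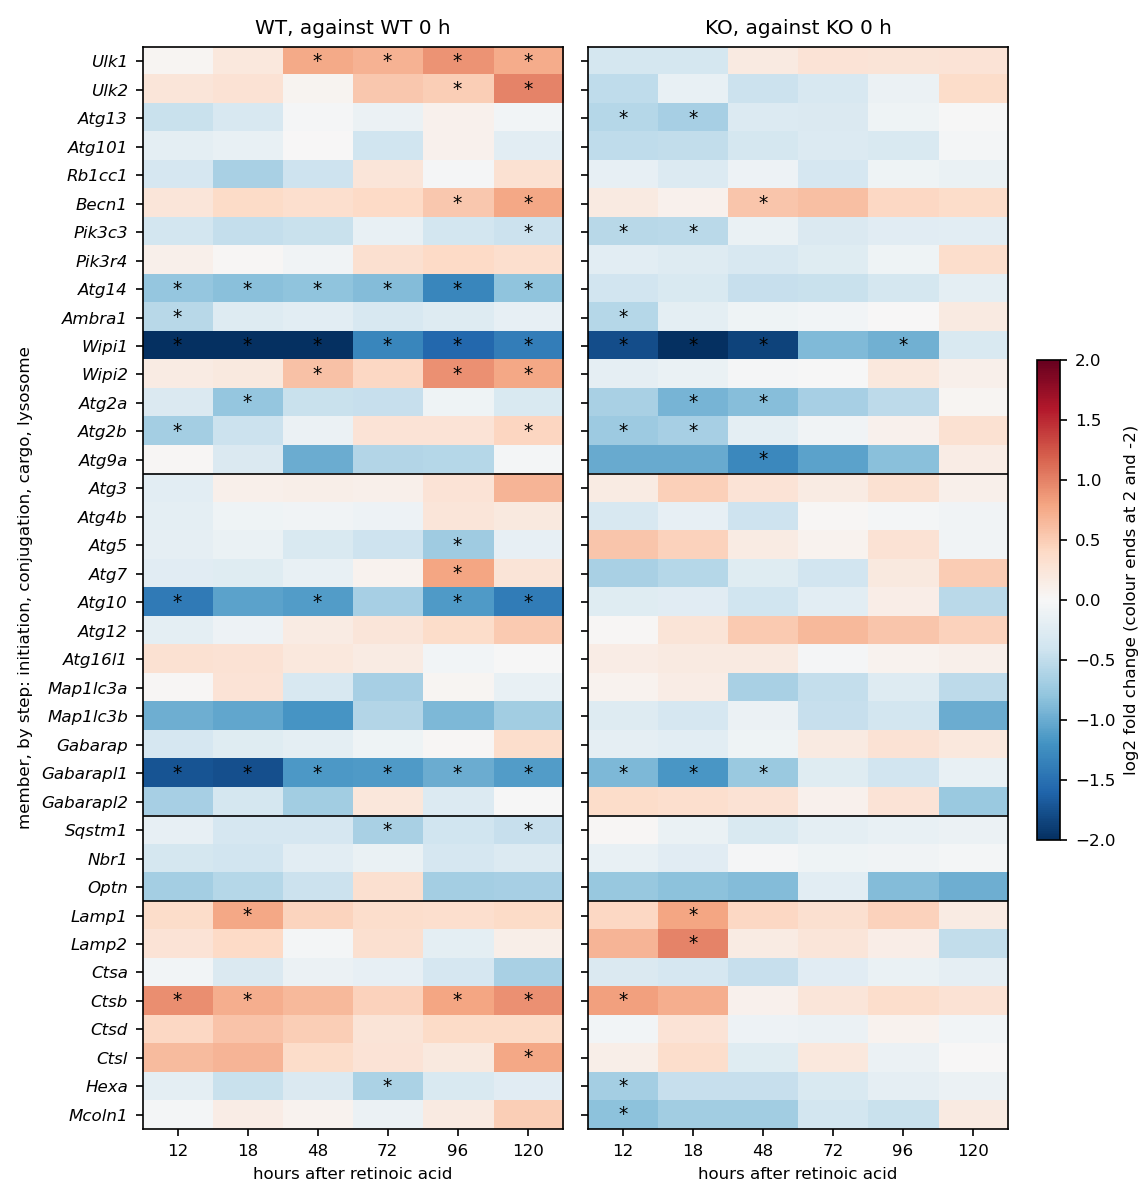
Log2 fold change against 0 h (colour, ending at 2 and -2) of the 38 genes (rows, by step) at 6 later times (columns), WT left and KO right, each cell from 2 libraries against 2. Stars mark the changes that passed the threshold: Wipi1 and Gabarapl1 are starred at all 6 times in WT, and in KO Wipi1 at 4 and Gabarapl1 at 3.

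A test of any change over the 7 times called 14 genes in each genotype (36.8%), beside 37.7% of all genes in WT and 15.6% in KO. In WT they were Atg10, Atg14, Atg2b, Atg7, Becn1, Ctsb, Gabarapl1, Lamp1, Optn, Rb1cc1, Ulk1, Ulk2, Wipi1 and Wipi2. The KO genes were Ambra1, Atg13, Atg2a, Atg2b, Atg7, Atg9a, Becn1, Gabarapl1, Lamp1, Lamp2, Mcoln1, Ulk1, Ulk2 and Wipi1, and the KO count was 5 without the 3 shallow KO libraries and 9 without the first-table KO library of 48 h. Wipi1 led both (adjusted p = 3.93e-08 in WT and 1.14e-06 in KO). Whether the time course differed between genotypes was tested with the interaction of genotype and time. That test in edgeR called 0 of the 38 genes and 0.097% of all genes, with 2 members under an unadjusted p of 0.05 (Gabarapl1, adjusted p = 0.39, and Lamp2, adjusted p = 0.427) and 0 called by DESeq2. A call in 1 genotype alone is therefore not shown to be a difference between them.

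Map1lc3b and Gabarapl2 were low in the 3 shallow KO libraries. Map1lc3b was at 142/54.6 CPM in KO at 72 h, 160/45.9 at 96 h and 96.0/35.9 at 120 h, the second value being the shallow library. Gabarapl2 was at 11.5/1.85, 13.3/1.09 and 5.97/0.970 CPM at these times, where the shallow values are 2, 1 and 1 reads. The deposited normalized tables hold 3 KO columns of these times that match no count column, with 4479729, 4190650 and 4122223 reads recovered, and whether they are the same libraries is not known. There Map1lc3b was at 99.6, 72.8 and 80.8 CPM and Gabarapl2 at 7.81, 6.44 and 6.31 CPM. Map1lc3a was at 25.7, 45.1 and 46.1 CPM there, against 40.8, 44.9 and 41.7 in the shallow libraries, and Atg12 at 51.6, 56.1 and 52.4 against 75.0, 66.7 and 70.8. Ulk2 was at 31.5, 48.0 and 63.8 CPM against 43.5, 54.7 and 67.9. In the recovered columns Gabarapl1 was at 56.3, 53.2 and 60.4 CPM, Wipi1 at 68.3, 59.2 and 96.6, and Sqstm1 at 246, 254 and 281 CPM. With the recovered reads in place of the shallow libraries, 18 members differed over the 7 times instead of 15.

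A list of 115 other autophagy and lysosome genes, of which 113 were tested, was called at a similar rate. Over the 7 times 21 were higher and 23 lower in KO (38.9%, against the background of 37.6% above). Of 34 lysosomal hydrolases, 10 were higher and 4 lower, of 13 fusion genes 0 higher and 5 lower, of 12 further cargo genes 1 higher and 6 lower, and of 12 regulators 5 higher and 2 lower. Atg16l2 (1.04) and the DNase Dnase2a (0.97) were the higher ones of largest size. Atg4a (-1.13), the transcription factor Mitf (-1.02) and the sulfatase Ids (-0.997) were the lower ones. Dnase2a had a mean of 7.72 ± 2.49 CPM in WT and 15.01 ± 2.62 in KO, and Ids 30.1 ± 10.96 and 15.5 ± 5.5 CPM (SD, n = 14 libraries). At 120 h 25 of the 113 differed (22.1%, beside 15.9% of all genes), with Atg16l2 (1.98) and Cln3 (1.22) among those higher in KO, and Atg4a (-1.69), the proton pump subunit Atp6v0c (-1.64) and Mitf (-1.53) among those lower.

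In WT, 46 of the 113 had changed by 120 h, 29 up and 17 down (40.7%, beside 29.2% of all genes). The thioesterase Ppt1 rose by 2.78 (from 9.54 ± 1.54 to 61.0 ± 12.5 CPM, SD, n = 2), the membrane protein Cd63 by 2.70 and the sulfatase Galns by 2.45 on the log2 scale. Atg16l2 (-1.72), the cathepsin Ctso (-1.65) and the ceramidase Asah1 (-1.53) fell. In KO 1 of the 113 was called at 120 h, Ppt1 with 2.02. At 12 h in WT the largest changes were in Atg9b (2.62), Mtor (0.95) and Ctsz (0.80), which rose, and in Park2 (-2.12), Foxo1 (-1.55) and Epg5 (-1.25), which fell. The interaction test called 0 of the 113 with edgeR and 1 with DESeq2, and 14 had an unadjusted p under 0.05.

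Transcription factors known to act on these genes were singled out after their values had been seen. Mean log2 differences of KO against WT were 0.31 ± 0.12 for Tfeb (adjusted p = 0.0415), 0.30 ± 0.07 for Tfe3 (adjusted p = 0.00157), 0.35 ± 0.08 for Foxo1 (adjusted p = 0.00115) and 0.27 ± 0.07 for Foxo3 (adjusted p = 0.00463), all higher in KO. Mitf, of the same family as Tfeb, was lower (-1.02 ± 0.16, adjusted p = 4.48e-05). Nr1d1, a repressor of the clock that is known to act on autophagy genes, was higher in KO by 0.45 ± 0.13 (adjusted p = 0.00746). At 120 h its WT libraries were at 53.7 and 33.5 CPM and its KO libraries at 89.7 and 107 CPM, with no overlap. Its groups overlapped at 48 and 96 h. At single times the difference of KO against WT in Foxo1 ran from -0.29 at 0 h to 0.71 at 120 h. Only at 120 h did it pass (adjusted p = 0.0212 in edgeR). That of Tfeb passed at no single time and ran from 1.11 at 12 h to -0.25 at 96 h. Foxo1 fell in WT from 498 ± 66 CPM at 0 h to 171 ± 15 at 12 h (SD, n = 2), with a log2 change of -1.55 ± 0.21 (adjusted p = 2.29e-05). It fell in KO too, from 416 ± 25 to 216 ± 13 CPM, with -0.92 ± 0.20 (adjusted p = 0.00607).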

How the data were processed

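Germ cell RNA was measured in 28 libraries, 2 in each of 14 groups of genotype and time. Bowtie, TopHat, Cufflinks and mm10 are named in the submitters' processing notes, with no versions. The authors deposited 2 tables of read counts per gene and 2 tables whose values are CPM by their sums, and the step from reads to these values is not given in the sources used here. Of 28 CPM columns 25 equal a count column scaled by its total within 0.001 CPM, 14 WT columns under the same replicate number and 11 KO columns under the other one. Replicate numbers of KO therefore do not mean the same library in both kinds of table, and libraries are named here by their count table. The remaining 3 CPM columns gave back whole reads for 100% of values within 0.1 read and were used in an alternative. Rows that name no gene were left out of totals and tests, as were 27 names turned into dates. In the 7 WT columns that hold such rows, reads in no feature made up 27.1 to 33.1% and reads aligned to more than 1 place 14.3 to 16.2% of the column.

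Counts were filtered, scaled (TMM) and fitted with edgeR 4.0.16 (robust quasi-likelihood, 14 group means, R 4.3.3) over 17519 genes. Contrasts were adjusted by the Benjamini-Hochberg method at 0.05. Alternatives were DESeq2 1.42.0, other scalings, no filter, replicate blocks, only the groups compared, and libraries left out. CPM values carry counting error of the totals above, and 3 reads were taken as the floor. Annotation is GENCODE M21 (GRCm38), and exon overlaps come from it. Genes given with every library were at most 12 by smallest p among those called over the mean of the times. Then came up to 6 each way per comparison by size, or the 3 smallest p where none passed, and of the other pathway genes up to 3 each way with a mean of at least 5 CPM. 1 of these other genes is not reported here. The members and lists were chosen with earlier results of these data known.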

Additional observations from a re-analysis of the deposited data

Results flagged for a closer look

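For 8 genes, at 11 gene and time combinations, both WT libraries lay to one side of both WT libraries of 0 h, and both KO libraries to the other side of those of KO. That is 4.82% of 228 combinations of gene and later time, beside 3.6% of those of all tested genes. These differences were not tested one by one, and the interaction of genotype and time called 0 of the 38 genes. At 12 h Ulk2 was at 0.25 in WT and -0.50 in KO on the log2 scale against 0 h, Atg5 at -0.18 and 0.55, and Gabarapl2 at -0.66 and 0.36. At 18 h Ulk1 was at 0.21 in WT and -0.35 in KO, Ulk2 at 0.29 and -0.15, and Mcoln1 at 0.16 and -0.70. At 72 h Ulk2 was at 0.54 in WT and -0.31 in KO, and Rb1cc1 at 0.24 and -0.34. At 96 h Atg5 was at -0.71 in WT and 0.29 in KO. At 120 h Ambra1 was at -0.16 in WT and 0.18 in KO, and Atg16l1 at -0.013 and 0.099. Ulk2 is the 1 gene that appears at 3 times, each with WT above and KO below its own 0 h level. Gabarapl2 has few reads, and its lowest library holds 1 read.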

How the results depend on the processing

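The number of members that differed over the mean of the times was 15, and it lay between 14 and 17 when single libraries were left out. It was 17 with a replicate block, 17 with the block within genotype, and 11 (8 higher, 3 lower) without the 7 WT libraries of the first table, of which 10 were among the 15. The leave-outs of a WT table were chosen after seeing the data. Replicate numbers were not taken as pairing, since not every pair of groups had deviations correlated over 0.1: in WT 20 of 21 pairs of times did (lowest 0.082, median 0.517), in KO 11 of 21, and between the genotypes 1 of 7. The WT libraries of a table thus deviated together, which the main fit, without a block, does not model. Calls of KO against WT at single times summed to 20 over the 7 times, to 33 with the replicate block within genotype, to 26 with a replicate block over all libraries, and to 5 with only the groups compared. WT calls against 0 h summed to 49, and to 23 or 32 without the WT libraries of the first or second table. Any change in WT gave 14, with 8 from only the groups compared and 7 without the second-table WT libraries. Any change in KO gave 14 and 5 without the 3 shallow libraries. The interaction gave 0, and 1 without a filter. For the other pathway genes, KO against WT at single times gave 45 and 6 with only the groups compared. WT against 0 h gave 143, and 75 or 79 without a WT table, KO against 0 h gave 37 and 62 with the replicate block within genotype, and any change in WT gave 47 and 27 without the second-table WT libraries. Their interaction gave 0, with 1 under DESeq2, 4 without a filter and 1 with the replicate block within genotype. Only the groups compared cannot give the mean over times or the interaction. The causes were not tested. Leaving out single libraries gave these ranges for the members: KO against WT at single times 13 to 25, WT against 0 h 23 to 52, KO against 0 h 5 to 27, any change 9 to 19 in WT and 5 to 15 in KO, and interaction 0 to 0. For the other pathway genes the ranges were 38 to 49 for the mean, 23 to 49 at single times, 69 to 148 in WT and 7 to 41 in KO against 0 h, 37 to 56 and 14 to 31 for any change, and 0 to 0 for the interaction. For named genes 3927 alternative values kept direction and call, 539 kept direction and lost the call, 3 gained it and 0 changed sign. Depth limits the lowest genes, such as Gabarapl2 at 1 or 2 reads in the 3 shallow KO libraries.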
